A study of Mus musculus with 6 samples.

Results

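The genes described here are Apc, Axin1, Ctnnb1, Gsk3b, Tcf7l2, Tcf7, Lef1, Myc and Ccnd1, the core of the Wnt/β-catenin pathway with its transcription factors and a pair of its best-known targets. They were taken by symbol from the gene column of the deposited count tables, where each symbol named 1 feature, giving 9 of 31053 features. The rule used symbols and no measured value, but the genes were chosen with earlier results of these data known. These genes were left out of the variable genes from which the cells were clustered. All 9 are protein-coding genes.

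In the absence of a Wnt signal, a destruction complex scaffolded by Axin1 and Apc lets the kinase Gsk3b phosphorylate β-catenin, the product of Ctnnb1, which is then degraded. When the complex is inhibited or Apc is lost, β-catenin accumulates and enters the nucleus, where it binds the DNA-bound factors Tcf7, Lef1, Tcf7l2 and Tcf7l1 and switches on target genes. In the colon this pathway maintains the crypt stem cells, Tcf7l2 being the main factor of the normal epithelium, and its activation by loss of Apc or by stabilising mutations of β-catenin starts most tumours. Tcf7 and Lef1 are also lineage factors of T lymphocytes.

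Of 6 libraries from whole colon tumours of male mice, 3 were labelled AOM PN and 3 Apc ICI. AOM PN mice had the genotype VilcreER P53fl/fl Notch1Tg. They received 2 mg tamoxifen by intraperitoneal injection to recombine the floxed gene and, from day 4 after it, azoxymethane (AOM, an alkylating colon carcinogen) at 10 mg/kg once a week for 6 weeks; the labels call this group ageing tumours. Apc ICI mice had the genotype VilCreER Apcfl/fl and were induced within the colon, by 1 submucosal injection of 4-hydroxytamoxifen (70 µl at 100 µM), with no AOM. Both groups carry a tamoxifen-inducible Cre under the villin promoter, which acts in intestinal epithelium and not in the other cells of the tumour, and both were culled at clinical endpoint. The groups therefore differ in alleles, carcinogen, route and time at once, and these cannot be told apart. The labels do not give the mice's ages, which exons of Apc or Trp53 are floxed, or what the Notch1 transgene encodes, and they do not tie each library to an animal. The p-values therefore rest on the spread among the libraries, which may be technical.

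The library totals were 87107277 to 98583066 unique molecular identifiers (UMIs, 1 per captured transcript) in AOM PN and 59309093 to 60075436 in Apc ICI. After filters, 8060 to 11399 cells per AOM PN library and 4726 to 6804 per Apc ICI library remained. Pairs of libraries shared 4 to 31 cell barcodes, at most 0.36% of the smaller one. Haemoglobin took 1.87% to 29.0% of the UMIs in AOM PN and 21.4% to 61.4% in Apc ICI. Cells were clustered and named from marker genes. "Epithelial-like" means the cells of 5 clusters whose best-matching markers were epithelial, less 3 of their 18 sub-clusters (271 of 4216 cells), which were led by markers of another class or held too few epithelial ones. Of the 5 clusters, cluster 11 (1534 cells, led by Gm26917 and Tcim) was shallow, had no epithelial marker among its leading genes and could not be named as a whole. Its cells were named only through the sub-clusters they fell into, and it held 1296 of the 1889 AOM PN cells of the class and 174 of the 2056 Apc ICI cells. UMIs were summed per library and class, and levels are given in CPM, UMI counts scaled to a normalised library size of 1000000 UMIs of that class.

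Epithelial-like cells numbered 867, 590 and 432 in AOM PN 1, 2 and 3, against 495, 900 and 661 in Apc ICI 1, 2 and 3. The 9 epithelial markers together took 7694 to 11765 CPM in AOM PN and 9821 to 10422 in Apc ICI, while the 6 fibroblast markers had 0.41 to 1.32 in AOM PN and 0.82 to 1.38 in Apc ICI. The epithelial-like cells of the groups lay mostly in different clusters: in AOM PN in a cluster led by Gm26917, Tcim, Sox4 and Plk2 and in one led by Gpx2, Reg3b and Lgals4, and in Apc ICI in clusters led by Mt3, Mt4, Spock2, Wif1 and Nkd1. Depth differed as well, with median UMIs per epithelial-like cell of 1101 to 1629 in AOM PN and 2874 to 5526.5 in Apc ICI, and summed UMIs of 757390 to 2447468 in AOM PN and 5787291 to 13363046 in Apc ICI.

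Of the genes named in the genotypes, Apc had 62.9, 66.3 and 84.2 CPM in AOM PN 1, 2 and 3, against 92.4, 75.2 and 80.7 in Apc ICI 1, 2 and 3. The groups overlapped, and the log2 ratio of AOM PN over Apc ICI was -0.23 ± 0.20 (SE; edgeR quasi-likelihood test, Benjamini-Hochberg adjusted p = 0.41). Apc transcript was therefore read in the Apc ICI epithelium at a level that did not pass the test against AOM PN. These libraries read the 3′ end of transcripts, and the labels do not say which exons were floxed, so this level does not check the deletion. Trp53 had 43.5, 67.2 and 52.2 CPM in AOM PN and 136, 150 and 155 in Apc ICI (log2 ratio -1.43 ± 0.23, edgeR adjusted p = 0.0013), lower in the group labelled P53fl/fl. Notch1 had 72.9, 54.3 and 108 CPM in AOM PN and 34.6, 39.8 and 33.5 in Apc ICI (log2 ratio 1.09 ± 0.25, edgeR adjusted p = 0.0089), higher in the group labelled Notch1Tg.

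In epithelial-like cells, Ctnnb1 and Tcf7 were lower and Myc was higher in AOM PN than in Apc ICI, while Apc, Axin1, Gsk3b, Tcf7l2, Lef1 and Ccnd1 did not pass the test. All 9 genes were measured, 1 was called higher and 2 lower, and the groups did not overlap for 5 of them. Over all 11918 genes tested in this class, 35.6% were called, 18.9% higher and 16.7% lower in AOM PN, and the groups did not overlap for 52.8%; the members' shares are close to these. The median log2 ratio was 0.31 over the 9 genes and -0.05 over all genes. Clusters 11 and 19 held cells of both groups and are described without a test, in CPM of the plain sum without haemoglobin. In cluster 11 Ctnnb1 had 243 to 311 in AOM PN and 313 to 402 in Apc ICI. Tcf7 there had 6.84 to 15.56 in AOM PN and 15.65 to 25.1 in Apc ICI. In cluster 19 Ctnnb1 had 131 to 180 in AOM PN and 144 to 262.5 in Apc ICI. Tcf7 there had 17.5 to 21.9 in AOM PN and 0 to 38.4 in Apc ICI. Both overlapped in cluster 19 only. The gaps in cluster 11 were narrow, its Apc ICI values rested on 174 cells, and whether counting error covers these gaps was not tested.

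**Figure D1:**
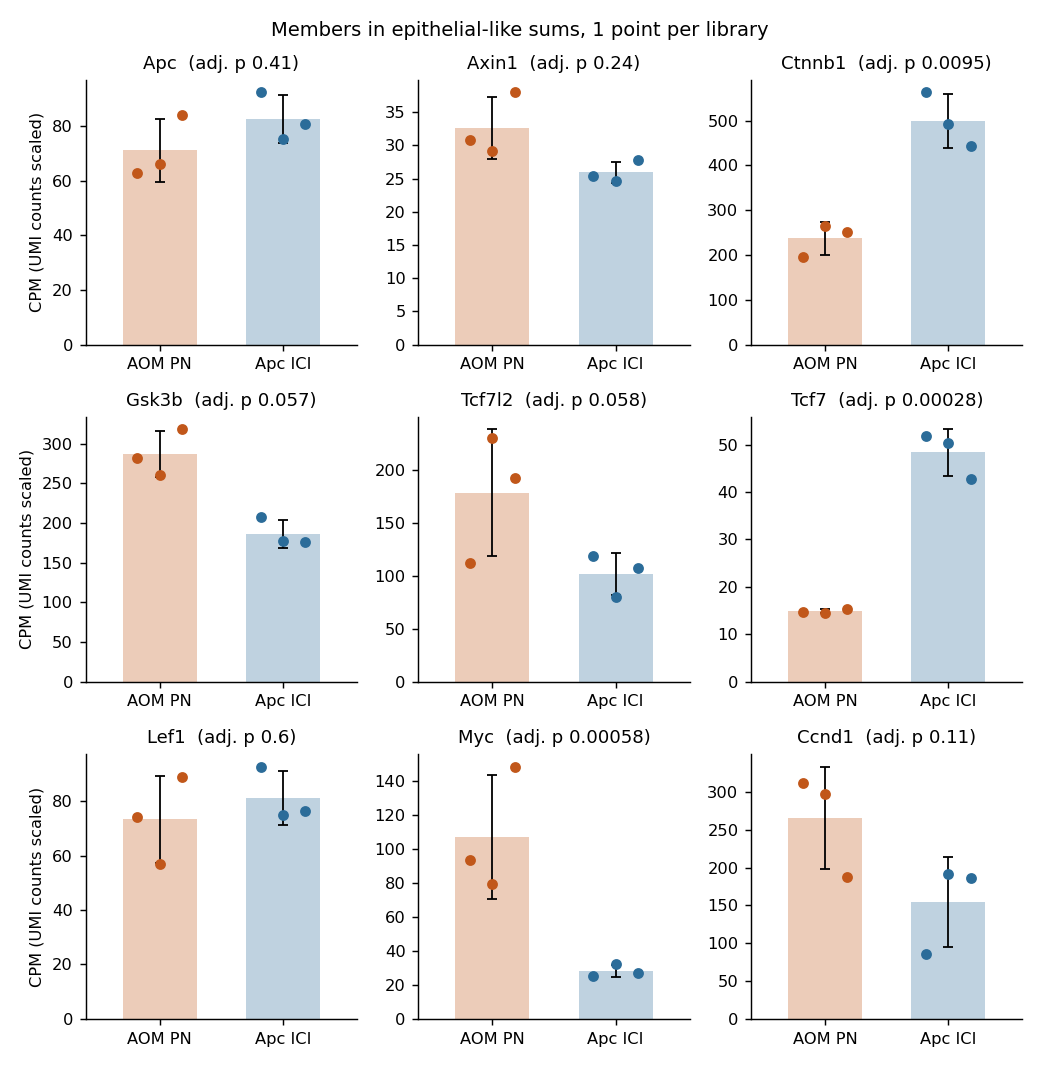
Level of each gene in epithelial-like cells (vertical axis, CPM, from 0), with 1 point per library, bars at the mean of 3 libraries and error bars of 1 SD; AOM PN is on the left of each panel and Apc ICI on the right. Ctnnb1 and Tcf7 lie lower and Myc higher in all 3 AOM PN libraries, whereas Apc, Lef1, Tcf7l2 and Ccnd1 overlap between the groups.

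Among the components of the destruction complex and its substrate, the substrate passed the test and the other genes did not. Ctnnb1 had 195, 266 and 252 CPM in AOM PN 1, 2 and 3, against 563, 493 and 443 in Apc ICI 1, 2 and 3. Every AOM PN library lay below every Apc ICI library, with means of 238 ± 37.2 in AOM PN and 500 ± 60.5 in Apc ICI (SD, n = 3 each). The log2 ratio was -1.07 ± 0.25 (SE; edgeR adjusted p = 0.0095). The call was kept in all 16 alternative settings, between -1.22 and -0.78. Axin1, the scaffold of the complex, had 30.8, 29.1 and 38.0 CPM in AOM PN and 25.4, 24.7 and 27.7 in Apc ICI. Its groups did not overlap, but the log2 ratio of 0.31 ± 0.19 did not pass (edgeR adjusted p = 0.24). Gsk3b, the kinase, had 282, 260 and 318 CPM in AOM PN and 207, 177 and 176 in Apc ICI. Its groups did not overlap either, and its log2 ratio of 0.62 ± 0.22 fell short of the threshold with an edgeR adjusted p of 0.057. Gsk3b was called in 3 of 16 alternatives: with DESeq2 (adjusted p = 0.0034), in cells thinned to 1500 UMIs (edgeR adjusted p = 0.012) and without AOM PN replicate 3 (edgeR adjusted p = 0.023). Its log2 ratio was 0.03 (edgeR adjusted p = 0.95) without the sub-clusters in which Gm26917 and Lars2 were both leading genes, and 0.18 (edgeR adjusted p = 0.19) with cells called as doublets kept. The sub-clusters left out in the former setting, 0, 3 and 5, held 951, 26 and 299 of the 1889 AOM PN cells. Sub-cluster 3 also held 366 of the 2056 Apc ICI cells. That setting therefore left out most of the AOM PN cells. With doublets kept Axin1 was at -0.17 (edgeR adjusted p = 0.33), below 0.

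Of the transcription factors, Tcf7 passed the test, and Tcf7l2 and Lef1 did not. Tcf7, which encodes TCF1, had 14.7, 14.5 and 15.4 CPM in AOM PN 1, 2 and 3, against 51.9, 50.3 and 42.8 in Apc ICI 1, 2 and 3. The 3 AOM PN libraries were nearly equal and all lay below Apc ICI, with means of 14.9 ± 0.47 in AOM PN and 48.3 ± 4.85 in Apc ICI (SD, n = 3 each). The log2 ratio was -1.71 ± 0.20 (SE; edgeR adjusted p = 0.00028), from 13 to 34 UMIs per library in AOM PN and 244 to 674 in Apc ICI. Tcf7l2, which encodes TCF4, had 112, 230 and 192 CPM in AOM PN and 118, 79.9 and 107 in Apc ICI. AOM PN 1 lay inside the Apc ICI range and the other two above it, and the log2 ratio of 0.81 ± 0.30 did not pass (edgeR adjusted p = 0.058). Tcf7l2 passed in 3 of 16 alternatives, with DESeq2 (adjusted p = 0.034), in thinned cells (edgeR adjusted p = 0.032) and without AOM PN replicate 1 (edgeR adjusted p = 0.024). It was at 0.40 (edgeR adjusted p = 0.54) without the Gm26917 and Lars2 sub-clusters and 0.45 (edgeR adjusted p = 0.12) with called doublets kept. Lef1 had 74.3, 56.9 and 89.0 CPM in AOM PN and 92.7, 74.8 and 76.3 in Apc ICI, overlapping groups with a log2 ratio of -0.16 ± 0.22 (edgeR adjusted p = 0.60).

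The value of Lef1 turned on which cells were counted. With cells called as doublets kept, its log2 ratio was -0.87 (edgeR adjusted p = 0.00017), and without the sub-clusters in which the nuclear transcript Gm26917 and Lars2 were both leading genes it was -1.70 (edgeR adjusted p = 0.0012). In thinned cells it was 0.16 (edgeR adjusted p = 0.72), above 0. The setting without the Gm26917 and Lars2 sub-clusters, numbered 0, 3 and 5, left out most of the AOM PN cells. Called doublets, 442, 105 and 179 of these cells in AOM PN 1, 2 and 3 and 146, 150 and 141 in Apc ICI 1, 2 and 3, were of high depth, with median UMIs of 9238 to 20486 in AOM PN and 24867 to 37150 in Apc ICI. They held 86.5%, 48.8% and 82.5% of the UMIs of the epithelial-like cells before removal in AOM PN 1, 2 and 3, against 43.9%, 30.3% and 40.5% in Apc ICI 1, 2 and 3. Lef1 in those called doublets was 27.7, 17.6 and 23.8 CPM of the plain sum in AOM PN and 47.9, 50.3 and 59.5 in Apc ICI. Whether the called cells were doublets or deep single epithelial cells was not tested, so the epithelial-like levels stand for the shallower cells that remained, above all in AOM PN.

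The promoter window of Ctnnb1 is shown because the gene was lower in AOM PN, and those of Lef1 and Tcf7l2 because they hold a TCF motif. RefSeq windows (GRCm38.p6) covered 5 of the 9 genes with 11 starts, and the 250 bases before each start were searched on both strands for the TCF motif CTTTGNN, where each N was A or T, and for the E-box CACGTG, the motif bound by Myc with its partner Max. The TCF motif occurred in 14.8% and the E-box in 6.02% of all 32851 windows. Neither was found before the starts of Ctnnb1 or Tcf7, the genes lower in AOM PN, nor before that of Gsk3b. The 2 windows with a TCF motif belong to internal starts of Lef1 and Tcf7l2, the motif lying 147 bases before the Lef1 start and 14 bases before the Tcf7l2 start. Capitals mark these motifs, and in the Lef1 window also an E-box 79 bases before the start. The sequences run 5′ to 3′ on the gene's strand:
Ctnnb1, chr9:120933150-120933399, plus strand: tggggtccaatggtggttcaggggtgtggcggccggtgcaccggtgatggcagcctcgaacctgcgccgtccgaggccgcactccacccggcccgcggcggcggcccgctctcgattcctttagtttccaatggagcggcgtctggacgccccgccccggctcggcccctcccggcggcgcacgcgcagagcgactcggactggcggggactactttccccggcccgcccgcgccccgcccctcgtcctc
Lef1, chr3:131156044-131156293, plus strand: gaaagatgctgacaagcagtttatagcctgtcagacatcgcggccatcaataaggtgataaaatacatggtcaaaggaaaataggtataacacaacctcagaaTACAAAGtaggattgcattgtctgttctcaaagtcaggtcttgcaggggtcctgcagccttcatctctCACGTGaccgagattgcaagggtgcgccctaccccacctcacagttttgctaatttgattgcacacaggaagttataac
Tcf7l2, chr19:55895071-55895320, plus strand: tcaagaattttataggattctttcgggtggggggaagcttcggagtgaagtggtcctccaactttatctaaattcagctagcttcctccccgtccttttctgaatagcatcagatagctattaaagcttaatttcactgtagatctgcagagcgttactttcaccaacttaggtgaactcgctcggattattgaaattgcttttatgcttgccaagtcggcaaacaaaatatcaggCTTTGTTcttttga
The libraries read 3′ ends, so they do not say which of these starts was used. The Ctnnb1 window holds 74.8% G and C, and the internal Lef1 and Tcf7l2 windows hold 44.8% and 40.8%. The Ctnnb1 window shown also lies inside the gene as annotated in GENCODE M21, which starts at 120929216.

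Of the targets, Myc, a transcription factor of cell growth, had 93.7, 79.1 and 148 CPM in AOM PN 1, 2 and 3, against 25.3, 32.2 and 27.0 in Apc ICI 1, 2 and 3. The lowest AOM PN library, at 79.1, lay above the highest Apc ICI library, at 32.2, with means of 107 ± 36.5 in AOM PN and 28.2 ± 3.62 in Apc ICI (SD, n = 3 each). The log2 ratio was 1.90 ± 0.26 (SE; edgeR adjusted p = 0.00058). The call was kept in all 16 alternatives, but its size was not: it was 0.99 (edgeR adjusted p = 0.024) without the sub-clusters led by Gm26917 and Lars2, and 1.11 (edgeR adjusted p = 0.0010) with called doublets kept. Myc did not overlap between the groups within cluster 11 or 19, on the plain scale without haemoglobin. It had 124 to 195 in AOM PN and 21.6 to 92.1 in Apc ICI in cluster 11. In cluster 19 it had 29.2 to 36.6 in AOM PN and 19.2 to 28.6 in Apc ICI. The gap in cluster 19 was narrow and its Apc ICI values rested on 124 cells in 3 libraries. Whether counting error covers this gap was not tested. Ccnd1, which encodes cyclin D1, had 311, 298 and 187 CPM in AOM PN and 86.2, 192 and 186 in Apc ICI. AOM PN 3 fell within the Apc ICI range, and the log2 ratio of 0.78 ± 0.35 did not pass (edgeR adjusted p = 0.11). Ccnd1 was called without the Gm26917 and Lars2 sub-clusters (log2 ratio 1.33, edgeR adjusted p = 0.020), with called doublets kept (1.07, edgeR adjusted p = 0.0033) and without AOM PN replicate 3 (0.97, edgeR adjusted p = 0.039). It was not called in the other 13 alternatives and was lowest without Apc ICI replicate 1 (0.50, edgeR adjusted p = 0.29).

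Several measures of the epithelial-like sums moved with the groups. Relative to the plain UMI sum, Gm26917 was at 19227 to 53152 CPM in AOM PN and 1891 to 2149 in Apc ICI, and Lars2 at 2226 to 3228 in AOM PN and 442 to 608 in Apc ICI. On the same scale the 10 T/NK markers together had 95.1 to 208 CPM in AOM PN and 10.6 to 12.6 in Apc ICI. The 8 neutrophil markers had 490 to 853 CPM in AOM PN and 135 to 238 in Apc ICI, the 11 monocyte/macrophage markers 113 to 304 in AOM PN and 38.2 to 71.0 in Apc ICI, and the 7 mast cell markers 283 to 3935 in AOM PN and 24.3 to 88.1 in Apc ICI. The 7 B cell markers were at 0.82 to 5.28 in AOM PN and 1.04 to 3.52 in Apc ICI. Markers of 3 other cell types moved the other way: the 6 pericyte markers had 7.41 to 26.4 CPM in AOM PN and 31.4 to 47.7 in Apc ICI, the 6 endothelial markers 2.04 to 10.6 in AOM PN and 11.9 to 15.2 in Apc ICI, and the 5 glial markers 0.41 to 1.32 in AOM PN and 5.09 to 9.03 in Apc ICI, none of them overlapping. Their part in the differences of Myc, Ctnnb1 and Tcf7 was not tested beyond these values and the settings given.

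The share of epithelial-like cells with a UMI was compared after thinning each cell of at least 1500 UMIs to 1500, which left 308, 314 and 180 cells in AOM PN and 342, 693 and 448 in Apc ICI and left out 1087 AOM PN and 573 Apc ICI cells. Myc was read in 15.6% ± 2.28 of AOM PN cells and 5.05% ± 0.98 of Apc ICI cells (SD, n = 3 each), Ctnnb1 in 27.0% ± 4.71 of AOM PN cells and 47.7% ± 6.89 of Apc ICI cells, and Tcf7 in 2.24% ± 0.30 of AOM PN cells and 5.48% ± 1.36 of Apc ICI cells. The groups did not overlap for Ctnnb1, Gsk3b, Tcf7, Myc and Ccnd1. The two-sided exact permutation test, run for each of the 9 genes, gave p = 0.1 for these 5, the smallest it can give with 3 against 3. Thinned to 1000 UMIs, Ccnd1 overlapped, with 18.2%, 14.5% and 16.1% in AOM PN and 8.70%, 11.9% and 16.4% in Apc ICI (exact p = 0.3), and the other 4 did not. In neutrophil-like cells thinned the same way, which should lack these factors, Myc was read in 0.083% of AOM PN and 0.18% of Apc ICI cells, and Tcf7 in 0.0091% of AOM PN and 0.15% of Apc ICI cells. Without thinning, the share with Myc was 17.7% ± 3.73 in AOM PN and 17.3% ± 4.32 in Apc ICI, and those of Axin1, Gsk3b, Tcf7l2, Lef1 and Ccnd1 were on average lower in AOM PN, opposite in sign to the thinned shares.

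Within the epithelium the levels varied between sub-clusters, described here without a test and with 95% Poisson intervals that cover counting error only. The levels are CPM of the plain UMI sum of a sub-cluster and group. Sub-cluster 0, with 951 AOM PN and 18 Apc ICI cells, was led by Gm26917, Tcim, Sox4 and Plk2, and the stress genes Jun and Dnajb1 were among its leading genes against the other sub-clusters. Its AOM PN cells had the highest Myc level of the sub-clusters drawn, at 169 CPM (150 to 189). In the same cells Lef1 was at 135 (118 to 153), Tcf7l2 at 261 (238 to 286) and Gsk3b at 430 (400 to 462). Sub-cluster 2, led by Gpx2, Lgals4 and Pyy, had 333 AOM PN and 74 Apc ICI cells. Its AOM PN cells had the highest Ccnd1 level drawn, at 463 CPM (424 to 504), beside Myc at 37.1 (26.7 to 50.1), Lef1 at 22.1 (14.3 to 32.6) and Apc at 12.4 (6.76 to 20.7). Ctnnb1 was at 158 (136 to 183) in the AOM PN cells of sub-cluster 2 and 250 (177 to 341) in its Apc ICI cells, whose Ccnd1 was at 314 (232 to 415).

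Sub-cluster 11, with 89 AOM PN and 10 Apc ICI cells, was led by Reg3b, Lypd8 and Reg3g, genes of differentiated or inflamed surface epithelium. Its AOM PN cells had no Lef1 UMI in 436506, which allows up to 6.87 CPM, while Tcf7l2 was at 378 CPM (323 to 440), its highest value in the sub-clusters drawn. Sub-clusters 3 and 4 were almost wholly from Apc ICI (366 and 370 cells), and among the genes that set them off were Cep112, Prox1 and Spock2 in sub-cluster 3 and Ptn, Spock2, Wif1 and Mt4 in sub-cluster 4. Gm26917 and Lars2 were both among the leading genes of sub-cluster 3 as well. Ctnnb1 reached 556 CPM (520 to 595) in sub-cluster 3 and 603 (588 to 618) in sub-cluster 4 of Apc ICI, and Tcf7 reached 68.5 (63.6 to 73.6) in sub-cluster 4. Ccnd1 was in both below its level in sub-cluster 2, at 65.7 (53.5 to 79.9) and 102 (95.7 to 108). In sub-cluster 6, set off by the mitosis genes Ube2c, Top2a and Mki67, Ctnnb1 was at 140 (72.6 to 245) in 30 AOM PN cells and 367 (346 to 388) in 239 Apc ICI cells. Myc there was at 93.6 (40.4 to 184) in AOM PN and 36.7 (30.4 to 43.9) in Apc ICI. Sub-cluster 13, led by Spink4, Lyz1 and Muc2 as in secretory cells and with 56 of its 74 Apc ICI cells from Apc ICI 2, had Ccnd1 at 45.1 (33.4 to 59.6) and Myc at 12.9 (7.05 to 21.6) CPM.

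**Figure D2:**
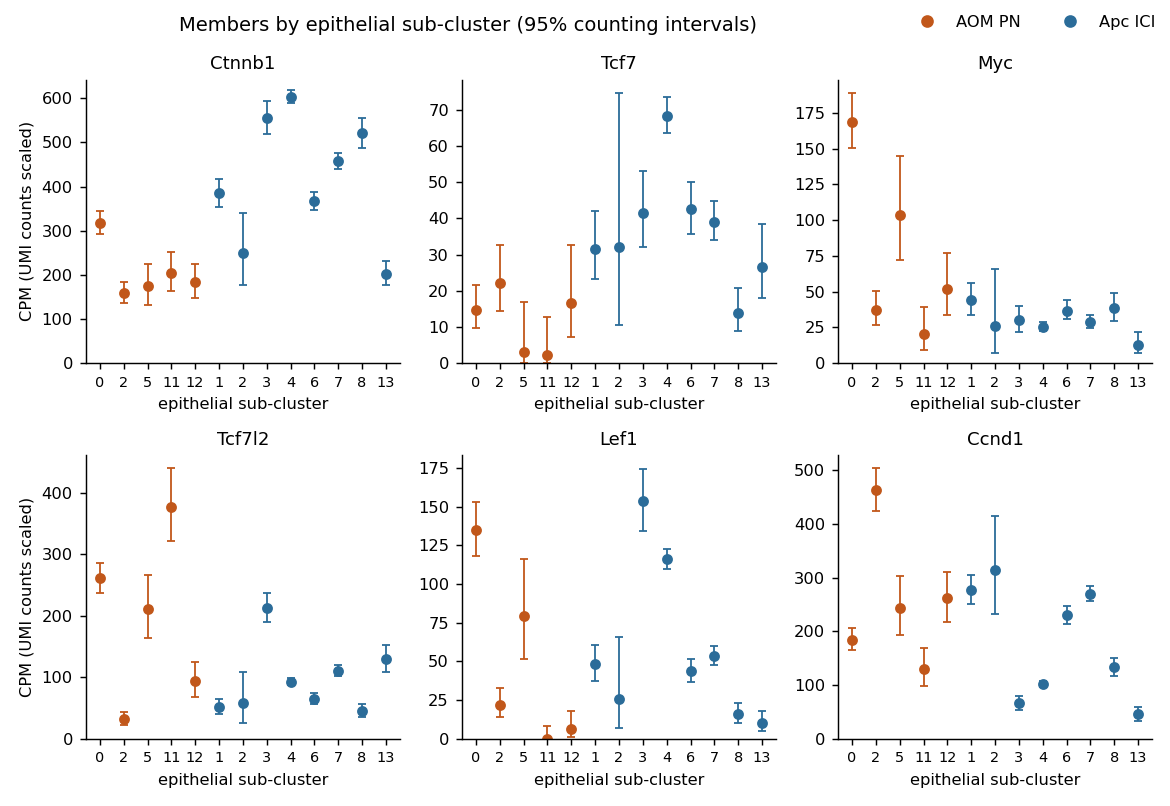
Level of 6 of the genes (vertical axis, CPM, from 0) in epithelial sub-clusters with at least 50 cells of a group (horizontal axis, sub-cluster number), AOM PN on the left and Apc ICI on the right of each panel; error bars are 95% Poisson intervals. Myc stands out at 169 in sub-cluster 0 of AOM PN, Ccnd1 at 463 in sub-cluster 2 of AOM PN, and Ctnnb1 at 603 in sub-cluster 4 of Apc ICI.

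Across cell classes some of the genes were read in each class and others in few. Erythroid-like cells are left out of this order, their UMIs being mostly haemoglobin. Ctnnb1 was highest in epithelial-like cells, at 195 to 563 CPM, with no library below any other class, where it lay between 47.3 and 132. Gsk3b was highest in epithelial-like cells (176 to 318) and next in T/NK-like cells (113 to 148), and these ranges did not overlap; mast-, B-, monocyte/macrophage-, neutrophil- and dendritic-like cells followed, with overlapping neighbours. Apc averaged 77.0 ± 11.1 (SD, n = 6) in epithelial-like cells and 17.3 to 43.1 in the other classes, with the range of every class overlapping that of its neighbour in the order. Axin1 averaged 32.2, 29.3 and 28.0 in B-, epithelial- and T/NK-like cells, whose ranges overlapped, and 8.03 in neutrophil-like cells, the lowest.

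Tcf7 was highest in T/NK-like cells, at 62.6 to 114 CPM, above the epithelial-like range of 14.5 to 51.9, and averaged 0.48 in monocyte/macrophage-like and 0.44 in neutrophil-like cells. It averaged 20.9 in dendritic-like cells. On the plain scale without haemoglobin, dendritic-like cluster 23, with Ccl22 and Ccr7 among its leading genes, had 76.0 to 119 in AOM PN and 46.6 to 121 in Apc ICI. Dendritic-like cluster 12 had at most 3.44 in any library, and T/NK-like cluster 20 at most 19.5. Lef1 had overlapping ranges in epithelial-like (56.9 to 92.7) and T/NK-like cells (32.0 to 92.7), and at most 8.49 in any library of the other classes. Tcf7l2 had 79.9 to 230 CPM in epithelial-like and 55.0 to 130 in monocyte/macrophage-like cells, overlapping ranges although the epithelial-like value was the higher in all 6 libraries, and at most 5.43 in T/NK-like cells. Myc averaged 67.6 in epithelial-like and 54.6 in B-like cells, with wide ranges that overlapped, and 0.95 in neutrophil-like cells. Ccnd1 was highest in epithelial-like (86.2 to 311) and dendritic-like cells (119 to 167), overlapping ranges, and averaged 3.43 in neutrophil-like cells.

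**Figure D3:**
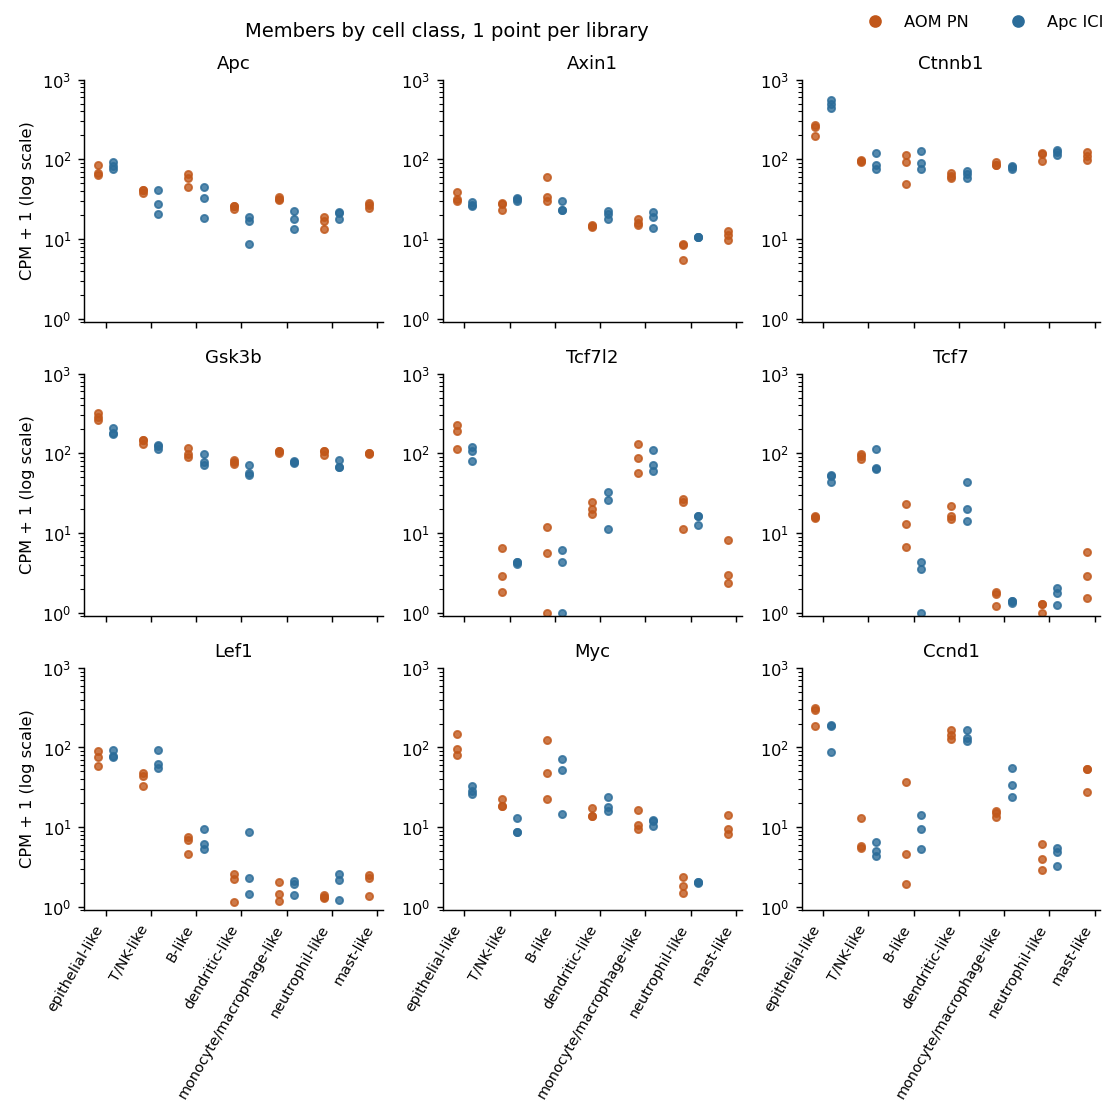
Level of each gene by cell class (vertical axis, CPM plus 1, log scale), with 1 point per library that has at least 20 cells, AOM PN drawn left of Apc ICI in each class; mast-like cells reached 20 cells only in AOM PN. Ctnnb1 lies between 47.3 and 132 outside the epithelium, whereas Tcf7 and Lef1 are near 0 in monocyte/macrophage- and neutrophil-like cells.

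The genes whose levels over the 39 class-by-library sums of 7 classes were most like each member, among 5516 genes with a mean of at least 20 CPM, were found by Pearson correlation of log2 values, given without a test because sums of 1 library share cells' handling and depth. For Ctnnb1 these were the keratin Krt18 (r = 0.89) and Tmc4 (0.89), for Tcf7l2 the junction gene F11r (0.90) and Rin2 (0.89), and for Tcf7 the plakophilin Pkp3 (0.87) and Aes (0.86). For Lef1 they were Nebl (0.95) and Mllt3 (0.92), for Myc Nom1 (0.94) and Gcn1l1 (0.93), and for Ccnd1 Atpif1 (0.92) and Ptov1 (0.88). For Gsk3b they were Asxl1 (0.91) and Arhgef5 (0.88), for Axin1 Cnot1 (0.91) and Zfp746 (0.90), and for Apc Gcc2 (0.86) and Wdr33 (0.85).

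Outside the epithelium few members differed between the groups. In T/NK-like cells all 9 genes were tested and 1 was called higher, while 3.67% of all 10328 genes were called, 1.86% higher and 1.81% lower. The groups did not overlap for 4 of the 9 genes and for 27.9% of all genes. Myc had 17.3, 21.2 and 17.6 CPM in AOM PN and 7.74, 12.2 and 7.68 in Apc ICI, without overlap (log2 ratio 1.03 ± 0.23, edgeR adjusted p = 0.047). This call was lost in 9 of 14 alternatives, among them thinning (0.45, edgeR adjusted p = 0.67) and each setting that left out a library (log2 ratio 0.86 to 1.27, edgeR adjusted p 0.055 to 0.19). Lef1, with Tcf7 a factor of T lymphocytes, had 32.0, 47.0 and 43.1 CPM in AOM PN and 60.9, 92.7 and 54.9 in Apc ICI, also without overlap, and a log2 ratio of -0.78 ± 0.21 that did not pass (edgeR adjusted p = 0.077; called in 5 of 14 alternatives). Tcf7 had 85.1, 98.5 and 92.0 in AOM PN and 63.6, 114 and 62.6 in Apc ICI, with a log2 ratio of 0.20 ± 0.21 (edgeR adjusted p = 0.62). The class was made of several clusters, described here without a test in CPM of the plain sum without haemoglobin. In cluster 10 both factors lay lower in every AOM PN library than in any Apc ICI library. Tcf7 had 56.6 to 98.1 in AOM PN and 183 to 242 in Apc ICI, and Lef1 had 41.0 to 60.04 in AOM PN and 125 to 170 in Apc ICI. In cluster 13 the order for Tcf7 was the opposite, with 64.8 to 102 in AOM PN and 11.4 to 28.6 in Apc ICI, while the Lef1 ranges overlapped. Myc in cluster 13 had 17.6 to 33.2 in AOM PN and 3.36 to 7.79 in Apc ICI, without overlap. In cluster 16 Myc went the other way, with 19.9 to 29.7 in AOM PN and 35.2 to 45.8 in 2 Apc ICI libraries. The Myc ranges overlapped in clusters 10 and 20. Cluster 16 held 23.9% of the AOM PN and 9.22% of the Apc ICI cells of the class.

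In monocyte/macrophage-like cells 8 genes were tested, 1 was called higher and 1 lower, while 3.37% of all 11002 genes were called, 1.44% higher and 1.94% lower. The groups did not overlap for 4 of the 8 and for 28.2% of all genes. Apc had 30.5, 29.7 and 32.8 CPM in AOM PN and 21.2, 12.4 and 16.6 in Apc ICI (log2 ratio 0.88 ± 0.19, edgeR adjusted p = 0.046), and Ccnd1 had 13.8, 12.5 and 14.8 in AOM PN and 32.3, 54.1 and 23.2 in Apc ICI (log2 ratio -1.44 ± 0.27, edgeR adjusted p = 0.030). Neither pair of groups overlapped, yet the Apc call was lost in 7 and the Ccnd1 call in 6 of 14 alternatives. Apc did not pass without any 1 of the libraries except Apc ICI 1 (log2 ratio 0.70 to 0.91, edgeR adjusted p 0.059 to 0.16). Ccnd1 did not pass without AOM PN 1, AOM PN 2, Apc ICI 1 or Apc ICI 2 (-1.53 to -1.03, edgeR adjusted p 0.057 to 0.094). Of the clusters of this class, cluster 2 held 47.9% of the AOM PN and 29.5% of the Apc ICI cells and cluster 9 held 12.8% of the AOM PN and 50.7% of the Apc ICI cells. Within them, on the same plain scale, Ccnd1 had 3.74 to 8.83 in AOM PN and 9.41 to 14.4 in Apc ICI in cluster 2, without overlap. In cluster 6 it had 9.26 to 15.5 in AOM PN and 9.92 to 60.4 in Apc ICI, and in cluster 9 it had 41.8 to 103 in AOM PN and 71.4 to 105 in Apc ICI, both overlapping. In neutrophil-like cells 7 genes were tested and 1 was called higher, while 30.5% of all 9587 genes were called, 14.1% higher and 16.4% lower. The groups did not overlap for 2 of the 7 and for 47.7% of all genes. Gsk3b had 94.4, 106 and 107 CPM in AOM PN and 66.5, 66.3 and 82.1 in Apc ICI (log2 ratio 0.52 ± 0.15, edgeR adjusted p = 0.032). This call was lost in 6 of 14 alternatives, among them those without AOM PN 2, AOM PN 3, Apc ICI 1 or Apc ICI 2 (0.46 to 0.51, edgeR adjusted p 0.061 to 0.14). The neutrophil-like cells of the groups lay mostly in different clusters: cluster 0, led by Retnlg and S100a9, held 5542 AOM PN and 478 Apc ICI cells, cluster 3, led by Slfn4 and Ifi27l2a, 400 AOM PN and 3005 Apc ICI cells, and cluster 8, led by Cstb and Hmox1, 84 AOM PN and 1884 Apc ICI cells. Within clusters, on the plain scale, Gsk3b overlapped between the groups in clusters 0 (68.5 to 93.5 in AOM PN and 71.6 to 90.9 in Apc ICI), 3, 5 and 8. In cluster 7 it had 106 to 120 in AOM PN and 69.1 to 99.4 in Apc ICI, without overlap. In dendritic-like cells none of 8 genes was called by edgeR, with 3 at an unadjusted p under 0.05 (1.41% of 8680 genes called), in B-like cells none of 5, with 1 (1.03% of 4842), and in erythroid-like cells none of 2, with 1 (3.55% of 1918). DESeq2 was not run in these 3 classes.

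Gsk3b was the member with a log2 ratio above 0 in every class tested, from 0.23 in T/NK-like to 0.62 in epithelial-like cells, and it passed in neutrophil-like cells only. The difference of the group effect between epithelial-like and other cells was itself tested in 1 model with library and class as terms. Against monocyte/macrophage-like cells, 4 of the 8 genes tested in both classes differed, while 25.2% of all 14104 genes in the model did. Against neutrophil-like cells 3 of 7 differed (28.3% of all genes), against T/NK-like cells 3 of 9 (21.5%) and against dendritic-like cells 5 of 8 (18.2%). Against B-like cells edgeR called 0 of 5 (8.69% of all genes), with 3 at an unadjusted p under 0.05. For Ctnnb1 the log2 ratio in epithelial-like cells minus that in each of the first 4 classes lay between -1.19 and -1.06, with edgeR adjusted p between 0.000665 and 0.0042. For Tcf7 the log2 ratio in epithelial-like cells minus that in T/NK-like cells was -1.98 ± 0.40 (edgeR adjusted p = 0.00049). The Myc effect was higher than in monocyte/macrophage-, neutrophil- and dendritic-like cells by 1.85 to 2.21, but its difference of 0.80 ± 0.47 from T/NK-like cells did not pass (edgeR adjusted p = 0.24).

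**Figure D4:**
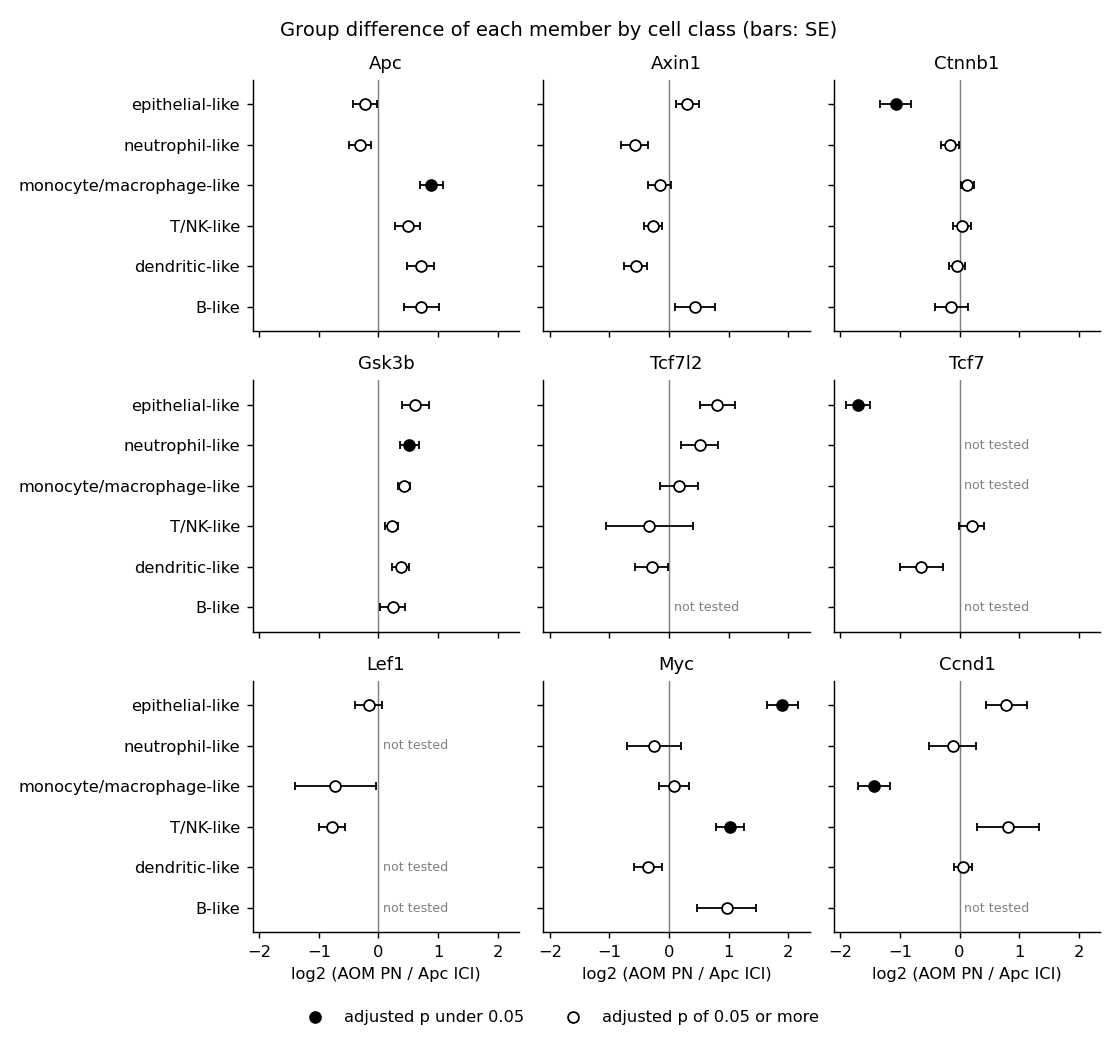
Log2 ratio of AOM PN over Apc ICI of each gene (horizontal axis) in 6 cell classes (vertical axis), with error bars of 1 SE and filled points where the edgeR adjusted p was under 0.05. Ctnnb1 is called in epithelial-like cells, at -1.07, and in none of the other 5 classes drawn, whereas Gsk3b lies to the right of 0 in all 6.

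The other genes of the pathway were read in the same epithelial-like fit, by lists. Their counts stand beside 18.9% of all genes higher and 16.7% lower, and their medians beside -0.05. Of 25 Wnt ligands and secretion genes 10 were measured, and 6 of them fell and 1 rose in AOM PN, with a median log2 ratio of -2.18. Wnt10a had 1.34, 0.86 and 1.19 CPM in AOM PN and 155, 111 and 118 in Apc ICI (log2 ratio -6.86 ± 0.35, edgeR adjusted p = 1.6e-05), and Wnt6 had 3.35, 2.57 and 7.12 in AOM PN and 312, 250 and 217 in Apc ICI (-6.08 ± 0.38). These levels rest on few UMIs: Wnt10a had 5 UMIs in the AOM PN sums together and 3180 in Apc ICI, a plain ratio of 0.0084 (95% exact interval 0.0027 to 0.020, counting error only), and Wnt6 had 17 in AOM PN and 6631 in Apc ICI. Wnt4 had 2 UMIs in AOM PN and 158 in Apc ICI, a plain ratio of 0.067 (0.0081 to 0.25), and was also called. Of 16 receptors and Dishevelled genes, 5 rose and 3 fell, with a median of 0.24. Among the Frizzled receptors, Fzd5 had 60.2, 54.8 and 94.9 in AOM PN and 9.74, 9.03 and 8.42 in Apc ICI (2.91 ± 0.25, edgeR adjusted p = 6.6e-05), while Fzd10 (-3.93 ± 0.48, from 6 UMIs in AOM PN and 498 in Apc ICI) and Fzd3 (-2.52 ± 0.49, from 10 UMIs in AOM PN and 323 in Apc ICI) were lower in AOM PN.

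Of 22 other genes of the destruction complex and its regulators, 2 rose and 5 fell, with a median of -0.28. Frat1, an inhibitor of the kinase Gsk3b, had 26.8, 17.1 and 15.4 CPM in AOM PN and 3.96, 4.03 and 2.98 in Apc ICI (log2 ratio 2.42 ± 0.30). Ctnnbip1, which blocks β-catenin from binding TCF factors, had 12.7, 13.7 and 4.75 in AOM PN and 39.1, 44.2 and 36.7 in Apc ICI (-1.83 ± 0.28), and Btrc, the ubiquitin ligase subunit that recognises phosphorylated β-catenin, fell by 1.37 ± 0.25 on the log2 scale. Of 17 nuclear partners, 2 rose and 2 fell (median -0.13), with the corepressor gene Tle4 higher (1.72 ± 0.27), Ctbp2 higher (0.69 ± 0.19) and the deacetylase gene Hdac1 lower (-2.02 ± 0.24) in AOM PN. Of 8 adhesion partners of β-catenin, 1 rose, Afdn (0.75 ± 0.23), and the median was 0.07. The other 7 adhesion partners did not pass the test.

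The 30 β-catenin and TCF target genes did not move one way: 10 rose and 6 fell, with a median of 0.12. Wif1, a secreted Wnt inhibitor, had 13.4, 8.13 and 21.4 CPM in AOM PN and 948, 597 and 556 in Apc ICI (log2 ratio -5.70 ± 0.44), and was lower in AOM PN. Dkk3, of the Dickkopf family, was called lower as well, with 0.67, 0 and 2.37 in AOM PN and 77.2, 41.8 and 49.1 in Apc ICI. It had 3 UMIs in AOM PN and 1347 in Apc ICI, a plain ratio of 0.012 (95% exact interval 0.0024 to 0.035). Lrig1, a growth factor receptor inhibitor found in crypt stem cells, had 90.3, 68.0 and 92.5 in AOM PN and 8.22, 11.8 and 5.79 in Apc ICI (3.23 ± 0.28). Wif1 was also among the leading genes of epithelial clusters made up mainly of Apc ICI cells.

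Around Myc, 3 of 16 family members and partners rose and 2 fell, with a median of 0.23. Mycn, the paralogue of Myc, had 36.8, 25.7 and 70.0 CPM in AOM PN and 2.89, 2.31 and 0.88 in Apc ICI (log2 ratio 4.30 ± 0.45), and the neighbouring non-coding gene Pvt1 was higher as well (2.57 ± 0.36), while Mycl was lower (-1.82 ± 0.39). Of 28 Myc target genes 1 rose and 1 fell, with a median of -0.07: the ribosome assembly gene Ppan was higher (1.43 ± 0.28) and Cdk4 lower (-1.40 ± 0.29). Of 20 G1 cyclins, kinases and inhibitors 6 rose and 3 fell, with a median of 0.66; the inhibitor Cdkn1c had 18.7, 27.4 and 30.8 in AOM PN and 252, 198 and 213 in Apc ICI (-3.12 ± 0.26), whereas Cdkn1b (1.41 ± 0.18) and E2f2 (1.64 ± 0.45) were higher in AOM PN. Of 20 proliferation genes 1 rose, Mki67 (1.22 ± 0.34), with a median of 0.08. Of 6 nuclear transcripts and markers of RNA quality 4 rose and 1 fell (median 1.68), led by Gm26917 (4.13 ± 0.50), Lars2 (2.35 ± 0.30) and Gm42418 (1.79 ± 0.43). All edgeR adjusted p of genes named from these lists were between 1.6e-05 and 0.027.

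The same lists were read in every class tested, and 2 other classes with more list genes called are given first. In monocyte/macrophage-like cells, where Ccnd1 was lower, 9 of 20 proliferation genes fell, with a median log2 ratio of -1.50, and 6 of 20 β-catenin and TCF target genes fell, with a median of -0.75. Over all genes in that class 1.94% fell, and the median was -0.02. Cluster 9 held 12.8% of the AOM PN and 50.7% of the Apc ICI cells of that class. The part of this split in the monocyte/macrophage-like counts was not tested. In neutrophil-like cells 12 of 22 β-catenin and TCF target genes fell and 2 rose (median -0.95), and 11 of 25 Myc target genes fell (median -0.67), beside 16.4% of all genes lower and a median of -0.05. Of 4 Wnt ligands and secretion genes measured in neutrophil-like cells 2 fell, with a median of -2.33, beside -2.18 in epithelial-like cells. Whether epithelial transcripts entered the neutrophil-like sums was not tested. These counts compare neutrophil-like cells that lay mostly in cluster 0 in AOM PN and in clusters 3 and 8 in Apc ICI. The part of that split in the counts was not tested. In T/NK-like cells 0 of 28 Myc target and 0 of 19 proliferation genes were called. Of 20 β-catenin and TCF target genes there, 1 rose and 2 fell, beside 3.67% of all genes called. Of these target genes 0 of 9 were called in dendritic-like, 1 of 5 rose in B-like and 2 of 9 fell in erythroid-like cells. Over all genes 1.41%, 1.03% and 3.55% were called in those classes.

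The genes lie on 9 chromosomes of GRCm38 as annotated in GENCODE M21. Axin1 is on chromosome 17 (26138688 to 26195811), Ctnnb1 on chromosome 9 (120929216 to 120960507), Gsk3b on chromosome 16 (38089001 to 38246084), Tcf7l2 on chromosome 19 (55741820 to 55933654), Lef1 on chromosome 3 (131110471 to 131224356) and Myc on chromosome 15 (61985391 to 61990374), all on the plus strand, as is Apc on chromosome 18. Tcf7 on chromosome 11 (52252371 to 52283014) and Ccnd1 on chromosome 7 (144929931 to 144939925) are on the minus strand. Exons of Ctnnb1 overlap those of Ulk4, exons of Lef1 those of Gm43352 and exons of Ccnd1 those of LTO1, each on the opposite strand. Whether the counting used strand is not given in the sources used here, so reads of these pairs may have been shared.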

How the data were processed

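Single-cell RNA was captured with 10x 3′ v3 chemistry. The authors deposited unnormalised UMI counts for every gene and barcode, and Cell Ranger 6.1.2 and mm10 are named in the submitters' processing notes. Whether counting used introns or strand is not given in the sources used here. The depth is 59309093 to 98583066 UMIs per library, and intervals cover counting error only.

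Barcodes under 200 genes or above 20% mitochondrial UMIs were dropped, and doublets were called by simulated neighbours at 0.8% per 1000 barcodes and left out. The 6 libraries were clustered together without the 9 genes (2000 variable genes, 30 components, 20 neighbours, Leiden resolution 1), with scanpy 1.11.5 and leidenalg 0.10.2 in Python 3.11.15. Clusters were called X-like only from marker lists. Clusters with epithelial markers as their best match were pooled and sub-clustered, and the epithelial name was settled per sub-cluster. UMIs were summed per library and class of at least 20 cells and tested with edgeR 4.0.16 in R 4.3.3: TMM factors, filterByExpr, quasi-likelihood test, group as the term, Benjamini-Hochberg over all genes tested, threshold 0.05. The fits were tested on simulated data. In epithelial-like sums 30.9% of 2-fold and 86.5% of 4-fold changes were recovered, and 5.83% of the calls were false. In neutrophil-, monocyte/macrophage- and T/NK-like sums 42.1% to 61.7% of 2-fold changes were recovered. A gene that did not pass may therefore still differ by such an amount. DESeq2 1.42.0, other filters and scalings, thinning to 1500 UMIs, called doublets kept and single libraries left out were tried as alternatives.

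The 9 genes and the gene lists were chosen with earlier results of these data known. From each list the 3 genes at most with the largest changes among those called, with groups that did not overlap, are named. Sub-cluster leading genes and sub-cluster values outside that rule were chosen after their values were seen.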

Additional observations from a re-analysis of the deposited data

Results flagged for a closer look

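The effect of group, AOM PN over Apc ICI, differed between epithelial-like cells and another class for 15 gene and class pairs, by edgeR's test of the class by group term with library as a covariate. Each value is the log2 ratio in epithelial-like cells minus that in the other class. The share of all genes that differed is 18.2% to 28.3% in these 4 class comparisons.

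Ctnnb1 differed against all 4 of these classes, by -1.06 for neutrophil-like cells (edgeR adjusted p = 0.0015), -1.19 for monocyte/macrophage-like cells (0.000665), -1.16 for T/NK-like cells (0.0014) and -1.07 for dendritic-like cells (0.0042). Myc differed by 2.02 against neutrophil-like cells (edgeR adjusted p = 0.016), 1.85 against monocyte/macrophage-like cells (0.00063) and 2.21 against dendritic-like cells (0.00050). The neutrophil-like Myc level rested on 6, 7 and 13 UMIs in AOM PN 1, 2 and 3. Apc differed by -1.12 against monocyte/macrophage-like cells (edgeR adjusted p = 0.0023), -0.78 against T/NK-like cells (0.047) and -0.95 against dendritic-like cells (0.030), although its own ratio in epithelial-like cells did not pass. Ccnd1 differed by 2.21 against monocyte/macrophage-like cells (edgeR adjusted p = 0.00011), where its ratio was negative. Tcf7 differed by -1.98 against T/NK-like cells (edgeR adjusted p = 0.00049). Axin1 differed by 0.72 against neutrophil-like cells (edgeR adjusted p = 0.047) and 0.86 against dendritic-like cells (0.041), and Tcf7l2 by 1.08 against dendritic-like cells (0.038).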

How the results depend on the processing

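Each alternative was compared with the analysis as reported, and no value changed direction where either of the pair was called. Lef1 in epithelial-like sums was called below 0 in 2 of 16 alternatives, down to -1.70. It was above 0, and not called, in thinned cells and without AOM PN 2. Of the values not called either way, 17 changed sign. With called doublets kept, Axin1 in epithelial-like sums was at -0.17, Myc and Ccnd1 in neutrophil-like sums at 0.097 and 0.12, Lef1 in monocyte/macrophage-like sums at 1.17 and Tcf7l2 in T/NK-like sums at 0.76. In thinned cells Lef1 in epithelial-like sums was at 0.16, Myc in monocyte/macrophage-like sums at -0.26 and Ctnnb1 in T/NK-like sums at -0.067. With 1 library left out, Lef1 in epithelial-like sums ranged from -0.32 to 0.0069 (highest without AOM PN 2). In neutrophil-like sums Myc ranged from -0.71 to 0.13 (above 0 without AOM PN 2) and Ccnd1 from -0.49 to 0.17 (above 0 without AOM PN 3 or Apc ICI 3). In monocyte/macrophage-like sums Tcf7l2 ranged from -0.19 (without AOM PN 2) to 0.48 and Myc from -0.24 (without AOM PN 3) to 0.26. In T/NK-like sums Ctnnb1 ranged from -0.066 to 0.26 (below 0 without Apc ICI 1 or Apc ICI 3) and Tcf7l2 from -0.38 to 0.15 (above 0 without AOM PN 3). Ctnnb1, Tcf7 and Myc in epithelial-like sums passed the test in all 16 alternatives run. The count of genes called in epithelial-like sums was 4241, against 1883 in thinned cells, 2725 without the sub-clusters led by Gm26917 and Lars2 (a setting chosen after seeing the data) and 2817 to 4701 with 1 library left out, lowest without Apc ICI 2. In neutrophil-like sums 2925 genes were called, against 1794 in thinned cells and 1366 to 2752 with 1 library left out, of which 1366 without Apc ICI 2 and 1396 without Apc ICI 1. In monocyte/macrophage-like sums 371 were called, against 820 with DESeq2, 1115 with no filter on low counts, 180 in thinned cells and 24 to 541 with 1 library left out (215 without AOM PN 1, 232 without AOM PN 2, and 190, 24 and 75 without Apc ICI 1, 2 and 3). In T/NK-like sums 379 were called, against 579 with DESeq2, 1088 with no filter, 747 with called doublets kept, 199 in thinned cells and 14 to 472 with 1 library left out (166 without AOM PN 1, 178 without AOM PN 2, and 14, 137 and 48 without Apc ICI 1, 2 and 3). The causes of these shifts were not tested. Of 471 values of single genes under alternatives, 406 kept their direction and their side of the threshold, 17 changed sign below it, 28 lost it and 20 gained it. Without thinning, the difference in the share of cells with a UMI was -14.9 percentage points for Axin1, -15.3 for Gsk3b, -16.1 for Tcf7l2, -20.8 for Lef1 and -8.47 for Ccnd1, all positive after thinning.

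Same-numbered libraries deviated from their group means with correlations of -0.19 to 0.14, and not every library correlated best with its own number. These values show no pairing by number, and with 3 libraries per group they cannot exclude one. With the replicate block, 3477 genes were called in epithelial-like, 2186 in neutrophil-like, 82 in monocyte/macrophage-like and 287 in T/NK-like sums. Under the block Gsk3b in neutrophil-like (0.52, edgeR adjusted p = 0.058), Apc (0.91, 0.090) and Ccnd1 (-1.36, 0.089) in monocyte/macrophage-like and Myc in T/NK-like sums (1.03, 0.057) were not called, and Lef1 in T/NK-like sums was (-0.78, 0.045).

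Depth limits Tcf7 in AOM PN epithelial-like sums, read from 13 to 34 UMIs per library, and Wnt4, Wnt10a, Dkk3, Fzd10, Fzd3 and Wnt6, with 2 to 17 AOM PN UMIs each. It also limits Myc in neutrophil-like sums, read from 6 to 13 UMIs per AOM PN library.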
